A study of Mus musculus with 24 samples.

Results

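Bulk RNA sequencing of the distal jejunum was used to compare wild-type male mice given succinate with wild-type male mice on regular water. The comparison holds 6 of the 24 mice of the series, 3 per group, chosen by their labels as wild type and male and by their columns in the deposited count table. Treated mice drank 100 mM succinate for 7 days. All 6 were wild type for *Ptk6*. They came from the breeding colony of the *Ptk6*-/- line, which has been crossed to C57BL/6 for more than 20 generations, and from different litters, and experiments ended at 9 to 11 weeks of age. The other groups used here for comparison were *Ptk6*-/- males, which lack this epithelial tyrosine kinase, and wild-type females, each with 3 control and 3 succinate-treated mice. Of 56691 genes, 19183 reached 10 counts in 3 or more libraries and were tested. Levels are CPM, counts scaled to a common library total, with TMM factors that correct the totals for differences in composition. Differences are log2 fold changes of succinate against control, with their standard error (SE).

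Succinate is released by protists and bacteria of the gut lumen and is sensed by tuft cells, rare chemosensory cells of the epithelium. Tuft cells carry the succinate receptor SUCNR1 and the cation channel TRPM5, and answer with interleukin-25 and lipid mediators. These act on group 2 innate lymphoid cells, whose interleukin-13 turns progenitors toward tuft and goblet cells. The circuit is best known from the small intestine, where it also answers to worms.

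The 6 libraries held 22826652 to 52824743 counts. They matched their labels as male, with 117 to 1095 counts of the Y-linked gene *Ddx3y* and 6 to 94 of *Xist*. As markers of small intestinal epithelium, *Vil1* had 29693 to 168998 counts and *Fabp2* had 63071 to 427225. Control 1 stood apart, because the 18S ribosomal gene *Rn18s-rs5* took 51.2% of its counts, against 0.118% to 2.75% in the other libraries. The summed level of replication histone genes was 1260, 740 and 631 CPM in controls and 610, 1120 and 919 CPM after succinate, so control 1 was the highest. Of 59 such genes, 10 were lower and 1 was higher after succinate at an unadjusted p under 0.05, against 1.33% and 2.74% of all genes. Their median log2 fold change was -2.36. *H1f4*, for example, was at 42.1 CPM in control 1 and at most 1.57 CPM in the other libraries. Without succinate 1, 0 of the 59 were lower and 5 higher, against 15.5% and 15.8% of all genes, with a median of -2.08. Both of these fits kept control 1. The summed levels of control 2 and 3 lay within the range of the treated mice. Succinate 1 stood apart as well, since long genes were high in it and short genes low. The slope of a gene's log2 deviation from the mean of the 6 libraries on the log2 of its length was 0.22 in succinate 1. It was -0.17 and -0.13 in succinate 2 and 3, and 0.02 to 0.04 in the controls. The corresponding trend with GC content was -0.17 per 10 points in succinate 1 and 0.16 and 0.11 in succinate 2 and 3. Spearman's correlation of succinate 1 with succinate 2 and 3 was 0.934 and 0.940 across genes, lower than its 0.976 and 0.973 with control 2 and 3. Whether RNA quality or another step made these trends was not tested. Many counts and values moved by more than 1.5 times without succinate 1, and the main ones are given both ways.

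**Figure D1:**
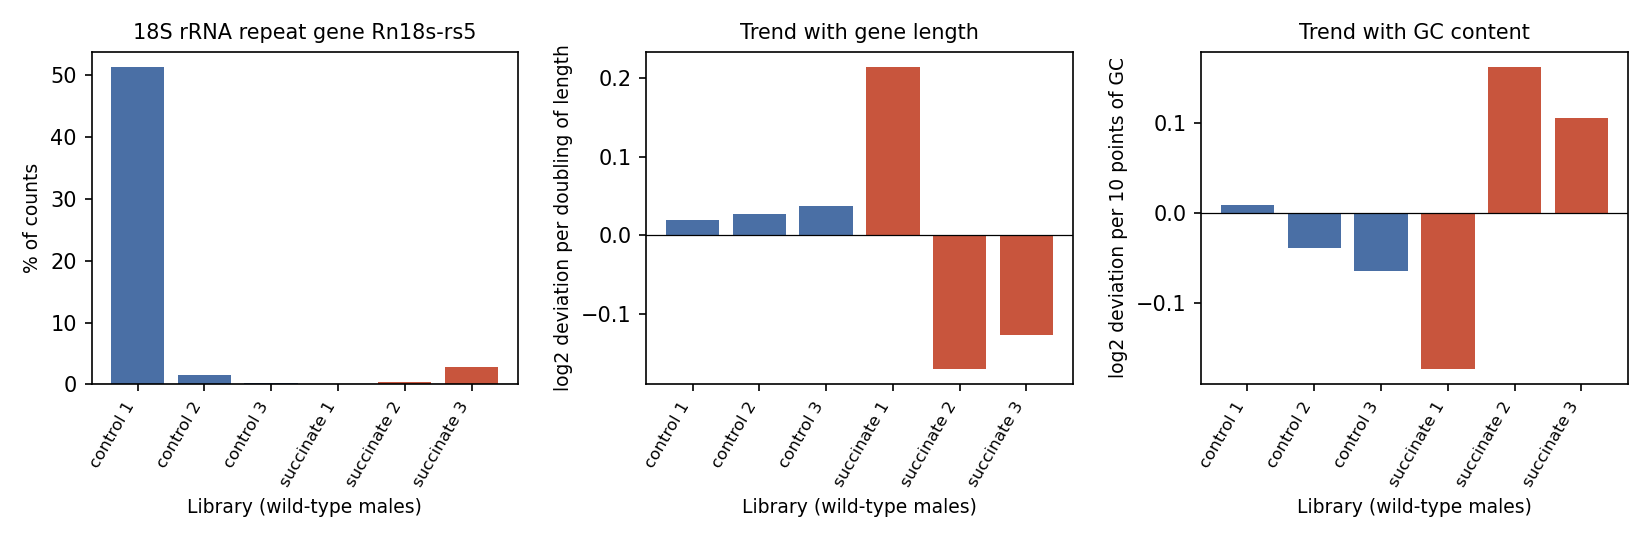
Share of counts on *Rn18s-rs5* (%), slope with gene length (log2 per doubling) and slope with GC content (log2 per 10 points) for each of the 3 control (blue) and 3 succinate (red) libraries. Control 1 stands out at 51.2% of counts, and succinate 1 has length and GC slopes of opposite sign to those of succinate 2 and 3.

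edgeR's quasi-likelihood test called 0 of 19183 genes (0%) with thresholds of 0.05 for the p adjusted by Benjamini-Hochberg and 2 for the fold change. At an unadjusted p under 0.05, 526 genes (2.74%) were higher after succinate and 255 (1.33%) were lower. All 3 succinate libraries lay above all 3 controls for 893 genes (4.66%) and below them for 868 genes (4.52%). The smallest adjusted p was 0.382, for *Lrch4*, and for the other genes with a log2 fold change given below it was at least 0.947. DESeq2, which the methods of the study name for comparisons of groups, called 50 genes (0.241%) at the same thresholds, 36 higher (0.173%) and 14 lower (0.0674%). limma voom with quality weights called 7.81%. Without succinate 1, edgeR called 1077 genes (5.80%), 617 higher (3.33%) and 460 lower (2.48%), and 37 of the 50 DESeq2 calls were among them. At an unadjusted p under 0.05 that fit had 15.8% of genes higher and 15.5% lower, the background for each count without succinate 1 below. The 617 genes called higher there had a median estimated length of 2590 bases and the 460 called lower 7010, against 5220 for genes not called. The calls without succinate 1 thus moved with the length trend, whose part in them was not tested, and they are given below only beside the values of all 6 libraries. As each mouse is 1 library, the p-values measure the spread between mice, and an exact permutation test of 3 against 3 cannot give a two-sided p below 0.1.

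The 300 bases around the annotated starts of 6 genes are given here, because these genes encode the succinate receptor (*Sucnr1*), a defining tuft cell protein (*Dclk1*), an enzyme and a gasdermin among the leading higher genes (*Pla2g4c*, *Gsdmc3*), a nucleoside carrier that was higher (*Slc28a1*) and the succinate carrier that was lower (*Slc13a2*). Each runs from 250 bases before to 50 bases after a RefSeq start in GRCm38.p6, a build other than the GRCm39 of the count table, and 11 of 18 genes looked up had an entry. Capitals mark matches on either strand to TTC and GAA set 4 bases apart, a spacing bound by STAT6, the factor downstream of interleukin-13, or to ATGCAAAT, the octamer of POU factors such as the tuft cell factor POU2F3. The STAT6-type motif was in 2284 of 32851 such windows (6.95%) and ATGCAAAT in 570 (1.74%). The *Sucnr1* window (chr3:60081619-60081918 on the plus strand) held a match to each. The windows of *Dclk1* (chr3:55242114-55242413 on the plus strand, the first of its 2 starts) and *Slc28a1* (chr7:81114549-81114848 on the plus strand) each held 1 match to the STAT6-type motif. Neither motif was in the windows of *Pla2g4c* (chr7:13325417-13325716 on the plus strand, the first of 2 starts), *Gsdmc3* (chr15:63878509-63878808 on the minus strand) and *Slc13a2* (chr11:78422185-78422484 on the minus strand). The windows of the other 5 genes with an entry (*Avil*, *Alox5*, *Sh2d6*, *Trpm5* and *Casp4*) and the other starts of *Dclk1* and *Pla2g4c* held neither motif.
*Sucnr1*: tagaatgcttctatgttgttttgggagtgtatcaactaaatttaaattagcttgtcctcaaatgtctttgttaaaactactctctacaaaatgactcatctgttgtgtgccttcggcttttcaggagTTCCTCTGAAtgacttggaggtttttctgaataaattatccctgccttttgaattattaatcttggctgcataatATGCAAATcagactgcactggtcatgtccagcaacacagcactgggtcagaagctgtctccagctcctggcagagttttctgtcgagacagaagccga
*Dclk1*: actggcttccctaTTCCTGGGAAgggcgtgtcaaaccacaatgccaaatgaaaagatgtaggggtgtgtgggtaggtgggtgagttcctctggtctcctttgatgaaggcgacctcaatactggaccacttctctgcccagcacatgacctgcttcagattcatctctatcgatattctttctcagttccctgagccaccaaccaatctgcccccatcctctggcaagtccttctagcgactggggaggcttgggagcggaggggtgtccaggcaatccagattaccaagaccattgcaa
*Slc28a1*: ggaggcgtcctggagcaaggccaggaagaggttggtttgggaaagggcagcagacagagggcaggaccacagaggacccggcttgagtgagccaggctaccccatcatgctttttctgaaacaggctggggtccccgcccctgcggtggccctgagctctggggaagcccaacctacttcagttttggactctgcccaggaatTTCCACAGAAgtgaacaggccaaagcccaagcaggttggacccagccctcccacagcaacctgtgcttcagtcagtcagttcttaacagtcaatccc
*Pla2g4c*: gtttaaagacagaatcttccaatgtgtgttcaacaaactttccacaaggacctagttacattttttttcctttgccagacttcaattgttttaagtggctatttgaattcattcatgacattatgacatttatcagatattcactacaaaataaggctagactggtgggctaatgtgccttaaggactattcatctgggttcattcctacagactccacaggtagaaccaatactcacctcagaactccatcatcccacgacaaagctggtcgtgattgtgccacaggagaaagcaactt
*Gsdmc3*: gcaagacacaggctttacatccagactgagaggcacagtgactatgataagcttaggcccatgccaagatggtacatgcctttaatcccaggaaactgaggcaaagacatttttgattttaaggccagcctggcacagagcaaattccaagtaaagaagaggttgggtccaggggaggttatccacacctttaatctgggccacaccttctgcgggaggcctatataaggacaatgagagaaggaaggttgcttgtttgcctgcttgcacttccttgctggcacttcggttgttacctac
*Slc13a2*: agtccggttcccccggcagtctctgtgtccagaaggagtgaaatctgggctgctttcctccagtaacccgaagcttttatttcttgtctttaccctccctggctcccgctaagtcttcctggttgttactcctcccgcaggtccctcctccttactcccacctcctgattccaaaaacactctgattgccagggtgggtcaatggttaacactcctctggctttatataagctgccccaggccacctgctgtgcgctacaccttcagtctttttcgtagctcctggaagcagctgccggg

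A large difference was that of *Pla2g4c* (ENSMUSG00000033847, chromosome 7, 13058580 to 13094597, GRCm39), a cytosolic phospholipase that frees fatty acids from membranes. Its level was 4.07, 1.25 and 3.07 CPM in controls 1 to 3 and 97.5, 113 and 748 CPM in succinate 1 to 3. Every treated mouse was above every control, and succinate 3 was far above the other treated mice. The log2 fold change was 6.88 (SE 1.03). DESeq2 called it (adjusted p = 3.53e-07), as did edgeR without succinate 1 (adjusted p = 0.00662).

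Genes of the gasdermin C cluster on chromosome 15 were higher after succinate. Gasdermins are pore-forming proteins, and the C family is an epithelial branch. *Gsdmc4* (ENSMUSG00000055748, 63763113 to 63784146) was at 55.9, 76 and 70.9 CPM in controls and 253, 211 and 509 CPM after succinate, a log2 fold change of 2.26 (SE 0.365). *Gsdmc3* (ENSMUSG00000055827, 63729573 to 63750407) was at 17.1, 27.1 and 23 CPM in controls and 104, 53.8 and 129 CPM after succinate, with a log2 fold change of 2.09 (SE 0.349). For *Gsdmc2* the values were 28.7, 52 and 49.1 CPM against 156, 104 and 259 CPM, a log2 fold change of 1.99 (SE 0.384). In all 3 genes the groups did not overlap, and succinate 3 was the highest. *Gsdmc* itself was at 0, 2.01 and 3.01 CPM in controls and 6.27, 5.26 and 12.5 CPM after succinate (log2 fold change 2.17, SE 0.887). *Gsdmcl2*, between *Gsdmc3* and *Gsdmc4*, had a log2 fold change of 2.07 (SE 0.399), and *Gsdmcl1* had no counts. Of the 100-base stretches of their transcripts, 28.6% in *Gsdmc2*, 28.4% in *Gsdmc3* and 20.2% in *Gsdmc4* also occur in another gene of the cluster, so reads could have been shared among them. The cluster summed over 7 genes was at 108, 163 and 152 CPM in controls and 544, 386 and 949 CPM after succinate, with a log2 fold change of 2.15 (SE 0.373). DESeq2 called *Gsdmc2*, *Gsdmc3*, *Gsdmc4* and *Gsdmcl2*, and so did edgeR without succinate 1.

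Among 17 gasdermin, caspase and inflammasome genes, 4 were higher and 2 were lower at an unadjusted p under 0.05 (5 and 5 without succinate 1), against 2.74% and 1.33% of all genes (15.8% and 15.5%). The list had a median log2 fold change of 0.00 (0.08 without succinate 1) against 0.02 (-0.03) over all genes tested. The higher members were the 4 *Gsdmc* genes. *Casp4* (ENSMUSG00000033538, chromosome 9, 5308828 to 5336783), the inflammatory caspase that senses cytosolic lipopolysaccharide, was lower. It was at 36, 36.7 and 37.1 CPM in controls and 22.1, 14.6 and 14 CPM after succinate, a log2 fold change of -1.11 (SE 0.227). The controls lay close together, and no treated mouse reached them. DESeq2 called it lower (adjusted p = 0.0273).

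Some tuft cell receptors and signalling genes were higher, at low levels. Of 18 genes listed, 13 had enough counts to be tested. Of these, 8 had all treated mice above all controls, against 4.66% of all genes, and 4 passed an unadjusted p of 0.05, all higher, against 2.74%. Without succinate 1 the background was wider: 9 of the 13 had treated mice above all controls, against 25.0% of all genes, and 5 were higher at an unadjusted p under 0.05, against 15.8%. The median log2 fold change was 0.45, and *Tas1r3*, *Plcg2* and *Itpr3* had values of -0.35, -0.08 and -0.02. *Sucnr1* (ENSMUSG00000027762, chromosome 3, 59989290 to 59994987) had 0, 14 and 28 counts in controls and 43, 56 and 58 after succinate, or 0, 0.231 and 0.534 CPM against 0.721, 1.07 and 1.36 CPM. The groups did not overlap, but the log2 fold change of 1.86 had an SE of 0.835 and missed an unadjusted p of 0.05. *Trpm5*, the channel that depolarizes tuft cells, was at 10.5, 10.5 and 12.1 CPM in controls and 13.3, 12.6 and 19.4 CPM after succinate, a log2 fold change of 0.45 (SE 0.24) that missed an unadjusted p of 0.05. *Irag2*, which binds the inositol trisphosphate receptor, was at 11.6, 11.4 and 9.35 CPM in controls and 16.1, 23.4 and 24.8 CPM after succinate. Its log2 fold change was 0.99 (SE 0.238), and edgeR called it without succinate 1 (log2 fold change 1.13, adjusted p = 0.00874). *Il17rb*, a subunit of the interleukin-25 receptor, was at 2.11, 2.37 and 2.16 CPM in controls and 4.13, 3.4 and 3.76 CPM after succinate (log2 fold change 0.76, SE 0.273). *Rgs13*, a brake on G protein signalling, had a log2 fold change of 1.1 (SE 0.321). *Ffar3*, a receptor for short-chain fatty acids, had 1.65 (SE 0.608). *Gnat3*, *Gnb3*, *Gng13*, *Tas1r1* and *Il25* were too low to test.

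Genes that mark tuft cells leaned higher. Of 25, 12 were higher at an unadjusted p under 0.05, against 2.74% of all genes, and none was lower. Of the same 25, 12 had treated mice all above controls, against 4.66% of all genes. A positive log2 fold change was seen in 24, as in 52.5% of all genes. Their median was 0.82. The median stayed at 0.68 without succinate 1, where 14 of the 25 were higher at an unadjusted p under 0.05, against 15.8% of all genes. In that fit 5 were called higher, against 3.33% of all genes, and 18 had treated mice all above controls, against 25.0%. *Sh2d6*, an adaptor of tuft cells, was at 5.45, 5.22 and 4.65 CPM in controls and 10.7, 10.4 and 16.7 CPM after succinate. Its log2 fold change was 1.3 (SE 0.267), and DESeq2 called it (adjusted p = 0.0126). *Siglecf*, a sialic acid-binding lectin of tuft cells and eosinophils, was at 1.3, 2.37 and 1.77 CPM against 4.8, 3.8 and 6.08 CPM (log2 fold change 1.41, SE 0.341). *Avil*, the actin-bundling protein advillin, was at 6.99, 6.55 and 8.22 CPM against 11.7, 12.2 and 14 CPM (log2 fold change 0.8, SE 0.217). In these 3 genes each treated mouse was above each control. *Nrgn*, a calmodulin-binding protein, also did not overlap, but succinate 1 was close to the controls, with 4.55, 4.45 and 3.41 CPM in controls and 5.18, 42.7 and 47.5 CPM after succinate. Its log2 fold change of 2.95 (SE 0.715) rested on succinate 2 and 3, and DESeq2 called it (adjusted p = 0.00109).

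The kinase and the transcription factor by which tuft cells are usually recognised were less separated, and both missed an unadjusted p of 0.05. *Dclk1* was at 5.45, 2.96 and 4.03 CPM in controls and 8.91, 4.59 and 6.93 CPM after succinate, so that succinate 2 lay within the controls (log2 fold change 0.73, SE 0.347, and 0.46 without succinate 1). *Pou2f3*, the factor that specifies tuft cells, was at 1.79, 1.37 and 0.935 CPM against 2.99, 1.3 and 3.08 CPM (log2 fold change 0.87, SE 0.457). *Spib*, an Ets factor also of B cells, was at 10.5, 4.17 and 2.71 CPM against 18.3, 15.9 and 19.4 CPM (log2 fold change 1.66, SE 0.469). *Hmx3* was at most 0.296 CPM in a control and at least 0.765 CPM in a treated mouse (log2 fold change 2.13, SE 0.548), and *Gfi1b* had a log2 fold change of 1.47 (SE 0.6) from 4 to 35 counts. Other members at an unadjusted p under 0.05 were *Kctd12*, *Matk*, *Tspan6* and *Vav1*, with log2 fold changes of 0.63, 1.3, 1.36 and 0.53. In such bulk RNA, more tuft cells and more RNA per tuft cell cannot be told apart.

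Some genes of eicosanoid synthesis, lipid mediators that tuft cells make, were higher. The list of 16 genes also held the receptors *Cysltr1* and *Cysltr2* and *Hpgd*, which breaks prostaglandins down. Of the 16, 5 were higher at an unadjusted p under 0.05, against 2.74% of all genes. None was lower, and the median log2 fold change was 0.16. Without succinate 1 it was 6 of 16, against 15.8% of all genes. *Alox5*, the lipoxygenase that starts leukotriene synthesis, was at 2.11, 2.11 and 2.16 CPM in controls and 3.64, 4.02 and 5.07 CPM after succinate (log2 fold change 1.00, SE 0.281). Its partner *Alox5ap* was at 4.88, 3.21 and 3.82 CPM against 4.56, 9.69 and 10.5 CPM (log2 fold change 1.07, SE 0.365). *Ltc4s*, which makes the cysteinyl leukotriene, was at 3.09, 2.12 and 2.19 CPM against 2.13, 9.27 and 12.5 CPM (log2 fold change 1.71, SE 0.587). In *Alox5ap* and *Ltc4s* succinate 1 lay within the controls, while *Alox5* did not overlap. The fifth member was *Ptges3* (log2 fold change 0.46, SE 0.188), beside *Pla2g4c*. *Lta4h*, which makes another leukotriene, had a log2 fold change of -0.15 (SE 0.196), and its groups overlapped. *Hpgds*, the prostaglandin D synthase of hematopoietic cells and tuft cells, was at 2.2, 1.6 and 2.06 CPM against 3.27, 2.68 and 1.57 CPM (log2 fold change 0.37, SE 0.376, and 0.10 without succinate 1).

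**Figure D2:**
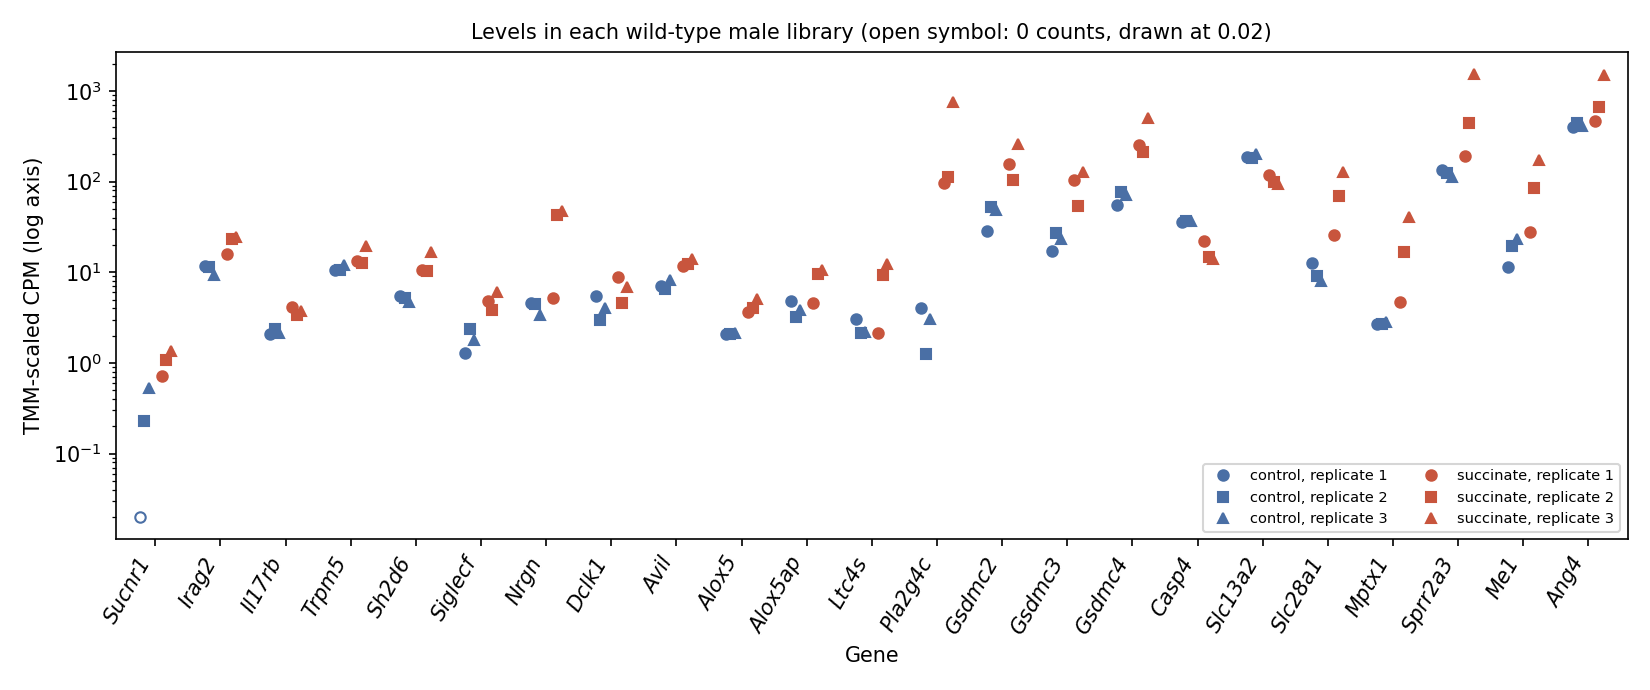
TMM-scaled CPM on a log axis for 23 genes in each of the 3 control (blue) and 3 succinate (red) libraries of wild-type males; symbols give the replicate number, and an open symbol is 0 counts. *Pla2g4c* runs from 1.25 to 748 CPM, the *Gsdmc* genes do not overlap, and *Nrgn* and *Ltc4s* are split between succinate 1 and the other treated mice.

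Cytokine transcripts of the circuit were near the limit of detection. *Il25* had 0 counts in each control and 6, 9 and 9 after succinate. *Il13* had 0, 0 and 5 counts in controls and 11, 0 and 7 after succinate, and *Il4* had 0, 7 and 9 against 8, 4 and 5. A count of 0 allows a level of up to 0.244 CPM in control 1 and 0.0494 and 0.0572 CPM in control 2 and 3, taking 3 counts as the floor, which covers counting error only. With the controls at that floor, *Il25* was at least 1.38-fold higher after succinate. Of 17 cytokine and receptor genes, 11 were tested. Of these, *Il17rb* alone passed an unadjusted p of 0.05, against 2.74% of all genes higher and 1.33% lower. Without succinate 1, 1 was higher and 3 were lower, against 15.8% and 15.5% of all genes. Among mast cell and eosinophil genes, *Mcpt1*, a mucosal mast cell protease, was at 3.25, 5.22 and 1.89 CPM in controls and 4.56, 9.81 and 10.1 CPM after succinate (log2 fold change 1.24, SE 0.456). *Mcpt2* was at 0.813, 2.01 and 0.420 CPM against 2.01, 1.82 and 1.97 CPM (log2 fold change 0.81, SE 0.569), and for both proteases the groups overlapped.

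Goblet cell genes had a median near 0, while 3 members were higher. Of 25 genes, 3 were higher and 1 was lower at an unadjusted p under 0.05 (6 and 5 of 24 without succinate 1), against 2.74% and 1.33% of all genes (15.8% and 15.5%), and the list had a median log2 fold change of -0.08. *Retnlb*, the antibacterial and antihelminth resistin-like protein, had 0 counts in each control and 23, 121 and 239 after succinate, or 0.386, 2.31 and 5.61 CPM. Against the floor of 3 counts per library it was at least 23.7-fold higher, and DESeq2 called it (adjusted p = 5.23e-06). *Retnlb* passed the count filter through the treated mice alone, so its place among the 3 higher members carries no weight. *Ang4*, an antimicrobial ribonuclease, was at 398, 439 and 409 CPM in controls and 470, 657 and 1480 CPM after succinate (log2 fold change 1.06, SE 0.418). *Kcnj16*, a potassium channel, had 0, 16 and 12 counts against 59, 50 and 119 (log2 fold change 3.01, SE 0.815). The main mucin *Muc2* was at 2260, 1590 and 1360 CPM against 2970, 1510 and 1400 CPM, and the groups overlapped. *Clca1*, a secreted protease of mucus, was at 1530, 1960 and 2210 CPM against 2090, 1960 and 3170 CPM (log2 fold change 0.34, SE 0.307). *P2ry4*, a nucleotide receptor, was at 5.61, 0.889 and 1.93 CPM against 3.07, 0 and 0.728 CPM, with no separation. The lower member was *Sytl2*, a vesicle tether (log2 fold change -0.48, SE 0.197).

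Of 10 genes of Paneth cells, which secrete antimicrobial proteins at the crypt base, none was higher and 1 was lower at an unadjusted p under 0.05. The shares of all genes were 2.74% and 1.33%. Without succinate 1 it was 3 and 1, against 15.8% and 15.5% of all genes. *Lyz1*, the Paneth cell lysozyme, was at 6400, 7820 and 7150 CPM in controls and 5160, 6030 and 5610 CPM after succinate, without overlap but short of an unadjusted p of 0.05. None of 27 alpha-defensin genes passed an unadjusted p of 0.05 with all 6 libraries. Without succinate 1, 15 were higher, against 15.8% of all genes, and the median log2 fold change went from 0.14 to 0.46. Their summed level was 46500, 41000 and 37600 CPM in controls and 21100, 61600 and 54900 CPM after succinate, so the treated mice lay on both sides of the controls. Reads could have been shared among similar copies, which was not tested, so the value of each defensin gene is uncertain. Among antimicrobial, oxidase, small proline-rich and other mucosal defence genes, 7 of 18 were higher and 1 was lower at an unadjusted p under 0.05. The shares of all genes were again 2.74% and 1.33%. Without succinate 1 it was 8 and 3 of the 18, against 15.8% and 15.5%. The list's median log2 fold change was 0.10, with 10 of 18 positive. The higher members included the close copies *Sprr2a1*, *Sprr2a2* and *Sprr2a3*, and *Duox2* with its partner *Duoxa2*, so they were not independent. *Reg3g*, *Reg3a*, *Reg3b* and *Lcn2* had values of -0.53, -0.34, -0.17 and -0.22, with overlapping groups. *Mptx1*, a mucosal pentraxin, was at 2.68, 2.68 and 2.84 CPM in controls and 4.7, 16.9 and 41.1 CPM after succinate (log2 fold change 2.93, SE 0.688). *Sprr2a3*, a small proline-rich protein with close copies next to it, was at 133, 126 and 113 CPM against 193, 448 and 1550 CPM (log2 fold change 2.56, SE 0.683). *Duoxa2*, the maturation factor of the hydrogen peroxide-making oxidase DUOX2, was at 69.4, 120 and 131 CPM against 185, 508 and 868 CPM (log2 fold change 2.28, SE 0.542). In each of these 3 genes the treated mice lay above all controls, with succinate 1 nearest to them, and DESeq2 called all 3 higher. *Nos2*, the inducible nitric oxide synthase, was the lower member, at 101, 174 and 209 CPM against 123, 46.5 and 25.4 CPM (log2 fold change -1.31, SE 0.557). Without succinate 1 its log2 fold change was -2.2 and edgeR called it (adjusted p = 0.0142).

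Among the genes that handle succinate, *Slc13a2* (ENSMUSG00000001095, chromosome 11, 78287913 to 78313043), a sodium-coupled carrier of succinate and other dicarboxylates in the brush border, was lower in every treated mouse. It was at 186, 184 and 201 CPM in controls and 118, 97.9 and 94.8 CPM after succinate, a log2 fold change of -0.88 (SE 0.191). That is under the fold threshold of 2. *Slc13a3*, a related plasma membrane carrier, had at most 0.446 CPM in any library, and its log2 fold change of 0.70 had an SE of 1.05, with overlapping groups. *Sdha*, the catalytic subunit of succinate dehydrogenase, was at 289, 371 and 398 CPM in controls and 323, 374 and 376 CPM after succinate, within the spread of the controls. *Sdhaf1*, an assembly factor of that enzyme, was at 16.5, 24.3 and 18.3 CPM against 15.9, 64.4 and 80.8 CPM (log2 fold change 1.44, SE 0.523). The list of 17 genes had 1 member higher and 1 lower at an unadjusted p under 0.05, against 2.74% and 1.33% of all genes. Without succinate 1 it was 4 and 1 of 16, against 15.8% and 15.5%. The list's median log2 fold change was 0.02 with all 6 libraries. *Egln3*, a prolyl hydroxylase that uses oxygen and yields succinate, was at 32.1, 35.6 and 40.9 CPM against 46.3, 79.2 and 144 CPM (log2 fold change 1.31, SE 0.384). It was the only 1 of 12 hypoxia pathway genes to pass an unadjusted p of 0.05, against 2.74% of all genes higher and 1.33% lower. Without succinate 1, 4 of these 12 genes were higher and 2 lower, against 15.8% and 15.5% of all genes.

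*Slc28a1* (ENSMUSG00000025726, chromosome 7, 80764547 to 80820164), a sodium-coupled pyrimidine nucleoside carrier, was at 12.6, 9.19 and 7.99 CPM in controls and 26, 68.9 and 127 CPM after succinate (log2 fold change 2.91, SE 0.539, DESeq2 adjusted p = 5.24e-06). *Me1*, the cytosolic malic enzyme, was at 11.3, 19.5 and 23.1 CPM against 27.5, 84.9 and 172 CPM (log2 fold change 2.39, DESeq2 adjusted p = 0.00569). *Aqp7*, a water and glycerol channel, was at 6.42, 7.8 and 10.2 CPM against 11.5, 38.9 and 62.9 CPM (log2 fold change 2.21, DESeq2 adjusted p = 0.00849). *Fut2*, the fucosyltransferase of gut glycans, was at 1.54, 2.21 and 2.19 CPM against 5.4, 5.03 and 16.6 CPM (log2 fold change 2.16, DESeq2 adjusted p = 0.0126). *Capn13*, a calpain, had a log2 fold change of 2.06 (DESeq2 adjusted p = 0.000593). In all of these the groups did not overlap, and succinate 3 was the highest. *Me1*, *Aqp7*, *Fut2* and *Capn13* were named after their values were seen, from the DESeq2 calls. *Acss1*, a mitochondrial acetyl-CoA synthetase also named after its values were seen, was at 39.7, 43.3 and 50.1 CPM against 62.6, 88.7 and 111 CPM (log2 fold change 0.98, SE 0.247) and was not called by DESeq2.

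Absorptive enterocyte genes leaned lower. Of 20, 2 were lower, against 1.33% of all genes, and none was higher at an unadjusted p under 0.05. In 5 all treated mice lay below all controls, against 4.52% of all genes, and the median log2 fold change was -0.24. Without succinate 1, 9 were lower and 3 higher, against 15.5% and 15.8% of all genes, and 11 lay below all controls, against 25.3%. *Slc2a2*, the basolateral glucose carrier, was at 27.9, 28.5 and 35.5 CPM in controls and 24.6, 10.9 and 11.7 CPM after succinate (log2 fold change -0.96, SE 0.336, and -1.47 without succinate 1). *Mgam*, a brush border glucosidase, was at 1800, 1310 and 1400 CPM against 1180, 787 and 613 CPM (log2 fold change -0.81, SE 0.315). *Vil1* and *Lct*, for villin and lactase, had log2 fold changes of -0.58 and -0.71 (SE 0.254 and 0.318), short of an unadjusted p of 0.05, without overlap. Of 15 enteroendocrine genes, *Gcg* (log2 fold change -0.56, SE 0.213) and *Tph1* (-0.98, SE 0.421, and -1.55 without succinate 1) were lower at an unadjusted p under 0.05. None was higher, and the shares of all genes were 1.33% lower and 2.74% higher. The list's median was 0.16, with *Sst* at 0.80, *Tac1* at 0.78 and *Pyy* at 0.72. Without succinate 1 it had 7 members higher and 3 lower of 14, against 15.8% and 15.5% of all genes, with a median of 0.52. Of 10 stem cell genes, 1 was lower at an unadjusted p under 0.05 (4 without succinate 1), against 1.33% of all genes (15.5%). The median log2 fold change was -0.10 (-0.40 without succinate 1). The lower gene was the receptor *Lgr5*, at 7.97, 8.92 and 8.87 CPM against 7.53, 3.56 and 4.23 CPM (log2 fold change -0.75, SE 0.322, and -1.18 without succinate 1). Of 14 proliferation genes none passed an unadjusted p of 0.05, and the median was -0.10. Without succinate 1, 1 was higher and 5 were lower, against 15.8% and 15.5% of all genes, with a median of -0.24. The groups overlapped for *Mki67* at 108, 94.2 and 80.5 CPM against 122, 66.2 and 62.7 CPM, *Pcna* at 56.5, 66.9 and 71.3 CPM against 62.1, 87.1 and 76.1 CPM, and *Mcm2* between 20.5 and 28.2 CPM in the 6 libraries. *Ptk6* was at 23.7, 25.2 and 38.1 CPM in controls and 40.3, 20.6 and 29.4 CPM after succinate. *Il22ra1*, the epithelial interleukin-22 receptor, was at 26, 27.6 and 29.7 CPM in controls and 72.2, 5.09 and 6.34 CPM after succinate, so the treated mice lay on opposite sides of the controls. Without succinate 1 its log2 fold change was -2.32 (SE 0.173, edgeR adjusted p = 0.00315).

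**Figure D3:**
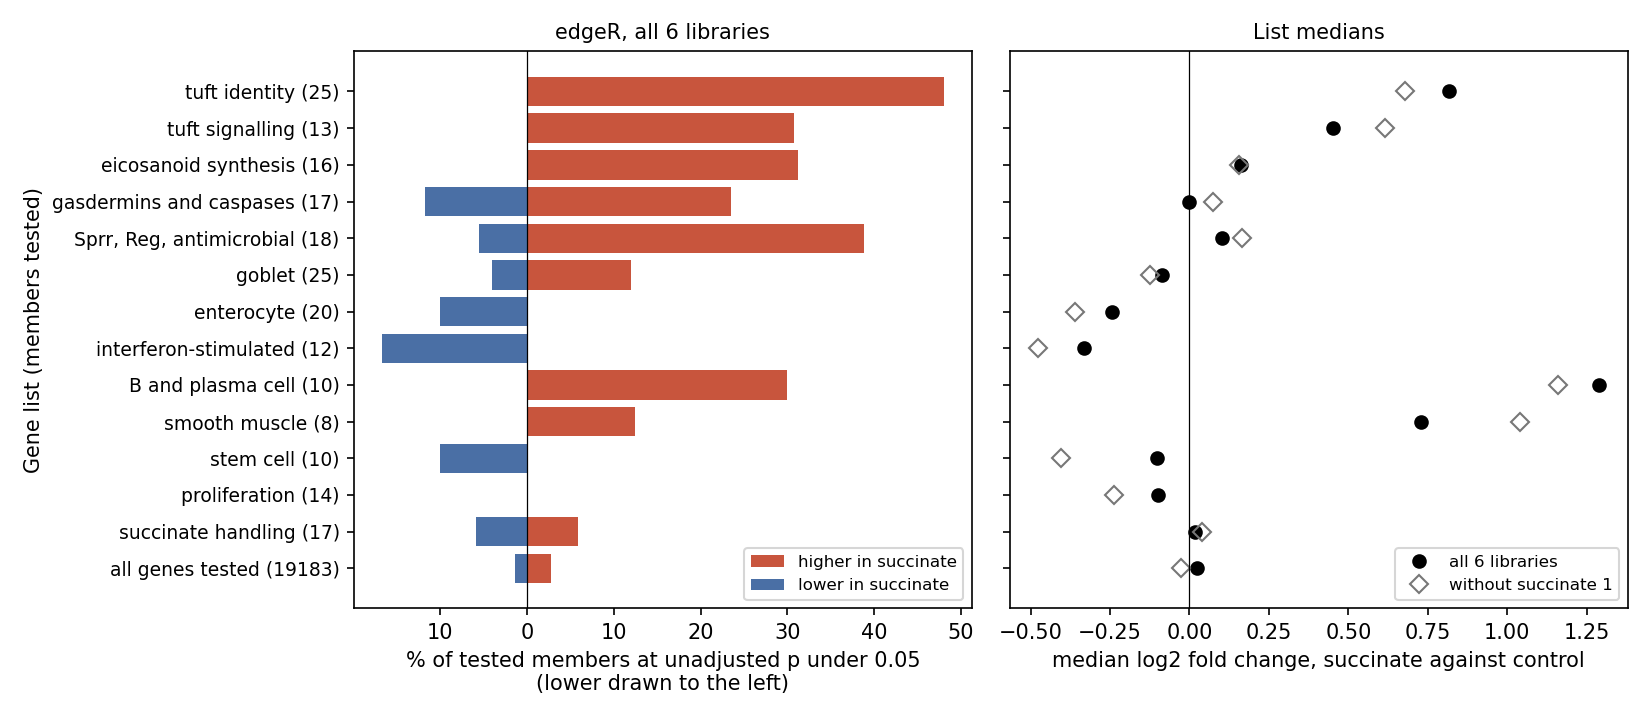
Left, share of tested members (%) of 13 gene lists and of all genes at an edgeR p under 0.05, higher (red, right) or lower (blue, left) after succinate; right, median log2 fold change with all 6 libraries (dots) and without succinate 1 (diamonds). Tuft cell markers have 12 of 25 members higher and none lower, against 2.74% of all genes higher.

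Markers of other cell types were also unequal between the groups. All 10 B and plasma cell markers had a positive log2 fold change, as did 52.5% of all genes, with a median of 1.29. Of the 10, 3 were higher at an unadjusted p under 0.05 (5 without succinate 1), against 2.74% of all genes (15.8%). *Cr2*, the complement receptor of follicular B cells, was at 3.17, 1.05 and 0.343 CPM in controls and 7.51, 5.81 and 5.59 CPM after succinate (log2 fold change 2.16, SE 0.692). *Cd79a*, a chain of the B cell receptor, was at 29.4, 12 and 8.87 CPM against 27.0, 54.6 and 46.8 CPM, and the groups overlapped. The tuft factor *Spib* and the class II gene *H2-Oa* (log2 fold change 1.3, SE 0.467) are also expressed in B cells. Smooth muscle markers, from the gut wall, summed to 3400, 2580 and 2130 CPM in controls and 2190, 3500 and 6970 CPM after succinate. Their median log2 fold change was 0.73 over 8 genes. Of these, *Actg2* alone was higher at an unadjusted p under 0.05 (5 without succinate 1), against 2.74% of all genes (15.8%). Hemoglobin genes and other red cell genes summed to 94.4 to 127 CPM in controls and to 52.8, 294 and 300 CPM after succinate. The part of these other tissues in the results above was not tested.

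A few interferon-stimulated and T cell genes were lower. Of 12 interferon-stimulated genes, 2 were lower, against 1.33% of all genes, and none was higher at an unadjusted p under 0.05, and the median log2 fold change was -0.33. Without succinate 1, 6 were lower and 1 higher, against 15.5% and 15.8% of all genes. Of 11 T cell genes, 2 were lower and none was higher (4 and 1 without succinate 1), against 1.33% and 2.74% of all genes (15.5% and 15.8%). Their median was -0.14 (-0.21 without succinate 1), with *Cd3d* at 0.28. *Oasl2* was at 64, 54.9 and 56 CPM in controls and 49.3, 24.4 and 29.3 CPM after succinate (log2 fold change -0.76, SE 0.281, and -1.15 without succinate 1), and *Ifit1* had a log2 fold change of -0.68 (SE 0.276). *Gzmb*, a granzyme of cytotoxic lymphocytes, was at 37.9, 33.5 and 39 CPM against 31.3, 18.7 and 19.2 CPM (log2 fold change -0.67, SE 0.246). *Trgc1*, a constant gene of the gamma delta T cell receptor, had -0.64 (SE 0.262). *Ubd*, a ubiquitin-like protein induced by interferon gamma, was at 48.3, 32.9 and 30.5 CPM against 13.5, 18.1 and 7.85 CPM (log2 fold change -1.5, SE 0.338, DESeq2 adjusted p = 0.0273). In *Oasl2*, *Ifit1*, *Gzmb*, *Trgc1* and *Ubd* no treated mouse reached the controls.

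The remaining genes with the smallest p and no overlap were of mixed kind. *Lrch4* (ENSMUSG00000093445, chromosome 5, 137627383 to 137639356), a leucine-rich repeat protein, was at 5.61, 6.54 and 5.69 CPM in controls and 27.6, 21.4 and 18.9 CPM after succinate (log2 fold change 1.93, SE 0.23, edgeR adjusted p = 0.382). The entry overlaps *Gm20605* on the same strand, which had a log2 fold change of -0.4, so reads may have been split between both entries. *Fam131a* was at 0.894, 0.395 and 0.439 CPM against 2.16, 3.86 and 5.17 CPM (log2 fold change 2.79, SE 0.503) and overlaps *Clcn2* on the other strand. *Shisa8* was at 0, 0.148 and 0.343 CPM against 1.46, 4.17 and 5.52 CPM (log2 fold change 4.23, SE 0.809). *Slc7a15*, an amino acid carrier, was lower, at 72.4, 83.4 and 92.4 CPM against 42.9, 50.9 and 46.3 CPM (log2 fold change -0.83, SE 0.187). *Fbn1*, the extracellular matrix protein fibrillin, was at 27.5, 17.6 and 17 CPM against 11.2, 7.88 and 8.64 CPM (log2 fold change -1.16, SE 0.27). Of the 20 leading genes, 6 were immunoglobulin variable segments, with *Igkv12-41* higher (log2 fold change 3.61) and *Ighv1-9*, *Igkv4-72*, *Igkv14-126*, *Ighv1-26* and *Ighv1-82* lower (-3.96, -1.81, -6.92, -1.38 and -2.86). *Ighv1-9* was at 12.4, 73.4 and 91.7 CPM in controls and 4.73, 2.5 and 4.23 CPM after succinate. Each mouse has its own repertoire of these segments.

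**Figure D4:**
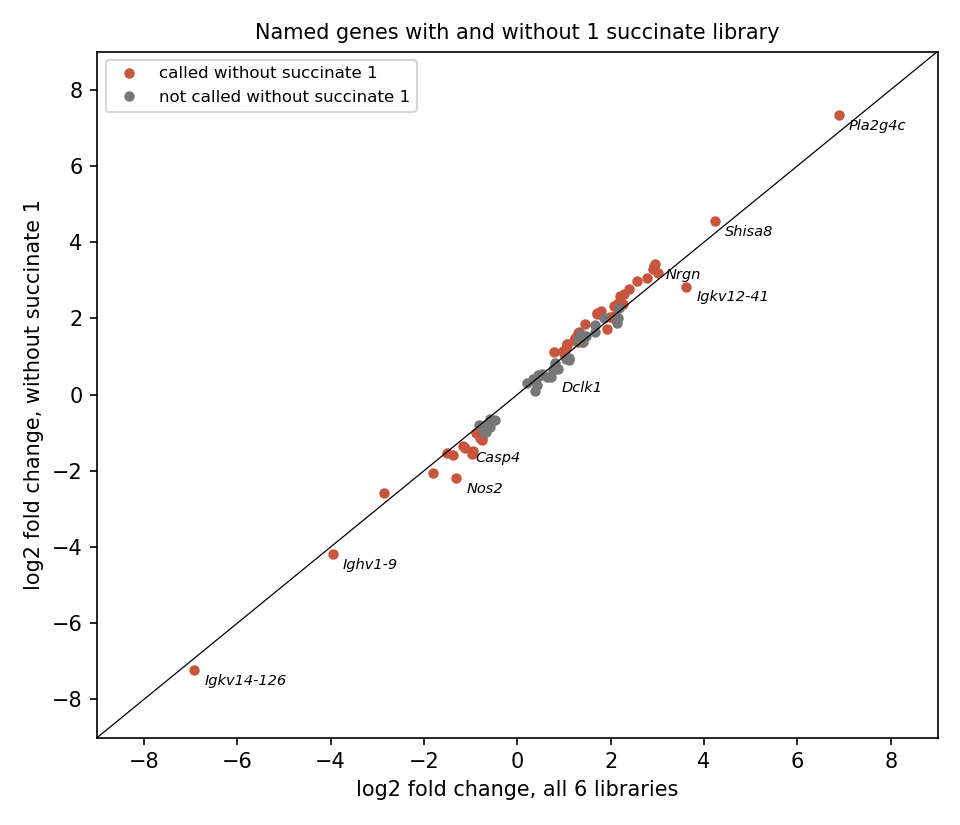
log2 fold changes of 88 of the named genes with all 6 libraries (horizontal) and without succinate 1 (vertical). Red points passed edgeR's thresholds without succinate 1, and the line marks equal values. None of the 88 changes sign, but many were chosen by their small p with all 6 libraries, so this carries little weight. *Il22ra1* is not plotted. *Pla2g4c* is at 6.88 with and 7.33 without that library.

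Whether the effect differed from that in *Ptk6*-/- males was tested as an interaction over 12 libraries. No gene passed (0 of 20340, 0%, with 772 at an unadjusted edgeR p under 0.05, 3.80%). Adjusted p-values started at 0.0749. Among the *Ptk6*-/- libraries, succinate 1 stood apart, with 8080321 counts, 29.7% of them on *Rn18s-rs5*. On levels scaled over the libraries of all 3 groups, *Pla2g4c* was at 5.1, 13.4 and 3.03 CPM in *Ptk6*-/- controls and 19.7, 3.13 and 44.6 CPM after succinate, and the log2 effect in wild type was larger by 5.2 (SE 1.4). The log2 effects of *Gsdmc2*, *Gsdmc3* and *Gsdmc4* were 0.29, -0.02 and 0.44 in *Ptk6*-/- males, smaller than in wild type by 1.7, 2.09 and 1.81 (SE 0.529, 0.567 and 0.563). Without succinate 1 of the *Ptk6*-/- males, the effects there were 0.43, 0.25 and 0.71, of which that of *Gsdmc4* passed an unadjusted p of 0.05. For *Casp4* the effects were -1.11 in wild type and 0.47 in *Ptk6*-/- males, a difference of -1.59 (SE 0.377). *Ubd* was 1.99 higher on the log2 scale in treated *Ptk6*-/- males, and the difference between genotypes was -3.49 (SE 0.673). *Fam131a* gave 4.76 (SE 0.842) and *Cd83*, an activation marker of B and dendritic cells, gave 1.77 (SE 0.45). Each of these differences passed an unadjusted p of 0.05 by edgeR, and each adjusted p was at least 0.396. Without succinate 1 of the *Ptk6*-/- males the differences were 5.19 for *Pla2g4c*, 1.56, 1.85 and 1.55 for the 3 *Gsdmc* genes, -1.69 for *Casp4* and -3.26 for *Ubd*. Tuft cell markers had a median effect of 0.04 in *Ptk6*-/- males, where 3 of 25 were higher at an unadjusted p under 0.05, against 5.66% of all genes (median 0.27, 3 of 25 and 5.60% without succinate 1). As an interaction, 3 of 25 had a larger effect in wild type at an unadjusted p under 0.05, against 1.66% of all genes. Without that library 2 of 25 did, against 2.35% of all genes. Of 14 tuft signalling genes, 0 did in either fit.

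The difference from wild-type females was tested in the same way, over 12 libraries, and no gene passed (0 of 20415, 0%, with 1077 at an unadjusted edgeR p under 0.05, 5.28%). The library labelled succinate 2 of the wild-type females stood apart, with 24.3 CPM of *Ddx3y* and 8760 CPM of the cardiac myosin *Myh6*, against at most 0.136 and 8.38 CPM in the other female libraries. Some tuft cell genes had smaller effects in males. The median over 25 markers was 0.82 in males and 1.99 in females, where 20 were higher at an unadjusted p under 0.05, against 5.28% of all genes. As an interaction, 5 of the 25 had a smaller effect in males at an unadjusted p under 0.05, against 3.05% of all genes, and 1 had a larger effect. Without the library that stood apart the female median was 1.81 and 18 were higher, against 2.75% of all genes, and again 5 of 25 were smaller in males, against 1.73% of all genes. The log2 effect of *Trpm5* was 2.44 in females, with 13.9, 9.44 and 8.88 CPM in controls and 75.4, 74.1 and 22.7 CPM after succinate, and that in males was smaller by 1.99 (SE 0.551). *Avil* was smaller by 1.84 (SE 0.497), *Sh2d6* by 1.85 (SE 0.613) and *Gsdmc2* by 2.07 (SE 0.756). These 4 differences passed an unadjusted p of 0.05 by edgeR, and without the same library they were 1.79, 1.72, 1.6 and 2.05. For *Pla2g4c* the effects were 6.88 in males and 7.45 in females, a difference of -0.58 (SE 1.07), and for *Slc28a1* they were 2.91 and 2.76 (difference 0.14, SE 0.802). Every adjusted p for these interactions was at least 0.908.

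**Figure D5:**
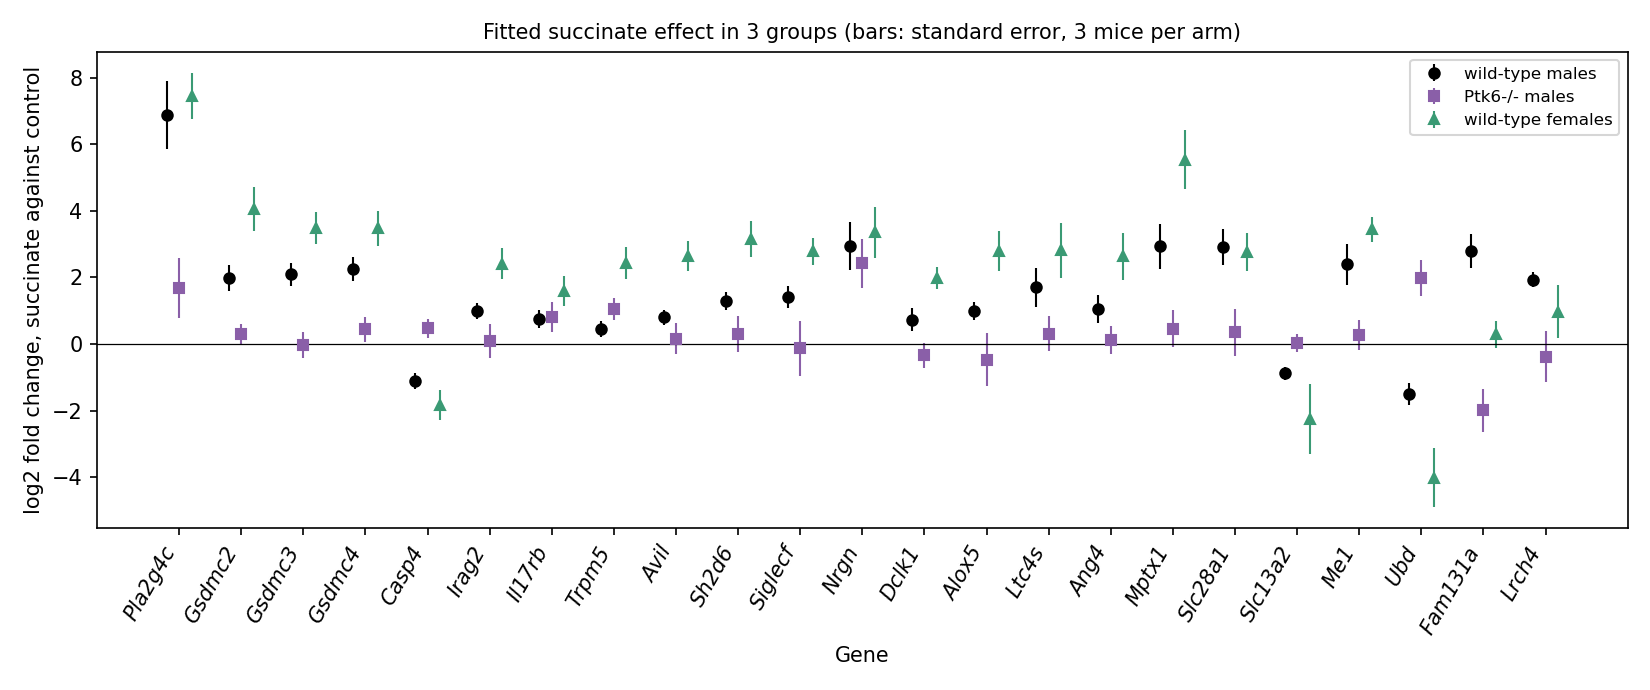
log2 fold change (succinate against control) with its standard error for 23 genes in wild-type males (black), *Ptk6*-/- males (purple) and wild-type females (green), 3 mice in each arm. *Pla2g4c* is at 6.88, 1.68 and 7.45, and the 3 *Gsdmc* genes are lowest in *Ptk6*-/- males and highest in females.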

How the data were processed

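RNA of the distal jejunum was sequenced by the study as stranded, poly(A)-selected libraries with paired reads of 150 bases, from samples with an RNA integrity number above 7. The authors deposited a table of read counts per gene and a table of FPKM (fragments scaled by transcript length and by library total). The processing notes of the submitters name GRCm39, FastQC and StringTie. The program that made the counts and the annotation release are not given in the sources used here. Groups were taken from the sample labels, and no column of per-sample values was left unmapped.

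edgeR 4.0.16 (TMM scaling, quasi-likelihood test, in R 4.3.3) was fitted to the counts of the 6 libraries alone, after removing genes that did not reach 10 counts in 3 libraries. Calls needed a p of under 0.05 after Benjamini-Hochberg adjustment and a 2-fold difference. The interactions were fitted on 12 libraries each. Gene lengths were estimated from the ratio of counts, scaled by library total, to FPKM, and are not annotated lengths. DESeq2 1.42.0 and limma 3.58.1 (voom on counts, or log2 of FPKM plus a pseudocount of 1 or 0.1) were alternatives. The code was tested on simulated data. Named genes were 33 fixed genes of the circuit and the study's question, up to 4 members of each list with the smallest p, and the leading 10 higher and 10 lower genes by p whose groups did not overlap; other list members at an unadjusted p under 0.05, and DESeq2 calls where stated, were added after their values were seen. Members and lists were chosen with earlier results of these data known. Counting intervals and floors cover counting error only. Some genes are not reported here.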

Additional observations from a re-analysis of the deposited data

How the results depend on the processing

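With all 6 libraries and edgeR no gene was called, and the count depended on the tool and on 1 library. DESeq2 called 50 genes, limma voom with quality weights 1498, limma on log2(FPKM + 1) 126 and on log2(FPKM + 0.1) 127, edgeR with no low-count filter 2, and edgeR with all 24 libraries in the fit 1. Leaving out 1 library at a time gave 0 to 1077 calls, of which 1077 came without succinate 1 and at most 2 without any other library. Other size factors, a filter of 10 counts in every library, a length offset, leaving out *Rn18s-rs5* and mitochondrial genes, and a length and GC offset chosen after seeing the data each gave 0 calls. The replicate numbers did not pair the mice (correlations of same-numbered deviations -0.158, 0.0243 and -0.284), and the replicate block gave 0 calls, with 626 genes at an unadjusted p under 0.05.

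For the genotype interaction DESeq2 called 62 genes, voom 2 and edgeR without a low-count filter 3, and leaving out 1 library gave 0 to 5, with 5 without wild-type control 1 and 1 without *Ptk6*-/- control 3. For the sex interaction DESeq2 called 8, and leaving out 1 library gave 0 to 59, with 59 without female succinate 3. Of the tuft cell markers, 12 higher by edgeR became 20 by voom and 7 on log2(FPKM + 1), and 8 to 14 with 1 library left out. The 4 higher tuft signalling genes became 7 by DESeq2, 8 by voom and 2 with a length offset and replicate block, and 3 to 5 with 1 library left out. The cause of these changes was not tested. The background moved too, so the tuft cell counts alone do not show a stronger or weaker shift. By edgeR 2.74% of all genes were higher at an unadjusted p under 0.05. Without succinate 1 it was 15.8%, where the tuft cell counts were 14 and 5. voom called 7.81% of all genes, against 0% by edgeR. Of 88 named genes none changed sign in 1732 refits. Many of the 88 were chosen by their small p with all 6 libraries, so this carries little weight. *Il22ra1*, which is not among them, went from 0.0053 to -2.32 without succinate 1. Of 639 list medians, 109 moved by more than the spread. The median of all genes shifted by 0.25 and 0.37 on log2(FPKM + 1) and log2(FPKM + 0.1). Genes with few counts, such as *Il25* and *Sucnr1*, are limited by depth, most in control 1.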

Other observations

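Genes of enteric glia and neurons, chosen after their values were seen, varied among the treated mice. *Nefl*, a neurofilament chain, was at 0, 0.494 and 0.591 CPM in controls and 6.56, 0.746 and 11 CPM after succinate. Succinate 2 lay near the controls. *S100b*, a calcium-binding protein of glia, was at 1.14, 0.724 and 0.935 CPM against 2.72, 1.93 and 3.45 CPM (log2 fold change 1.56, SE 0.389), and *Sox10*, a glial transcription factor, was at 1.46, 1.65 and 1.01 CPM against 2.72, 2.14 and 2.8 CPM (log2 fold change 0.9, SE 0.35), both without overlap.

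Immunoglobulin variable segments, also counted after their values were seen, held many small p-values. Of 171 tested, 16 were higher and 30 lower at an unadjusted edgeR p under 0.05, or 26.9% against 3.87% of other genes. Their summed level was 1840, 2710 and 2720 CPM in controls and 2730, 1520 and 1310 CPM after succinate.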
